A study of Homo sapiens with 16 samples.

Results

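The ELAVL (embryonic lethal abnormal vision-like, or Hu) family was described here across SH-SY5Y cells, a human neuroblastoma line with sympathoadrenal traits, differentiated for 15 days towards dopamine-like neurons. The family comprised 4 of the 19898 genes in the deposited table, ELAVL1, ELAVL2, ELAVL3 and ELAVL4, selected on their gene symbols. Poly-A RNA was sequenced in 16 libraries that fell into 4 groups of 4: untreated cells in 2D dishes, 2D cells given MPP, untreated cells in a 3D silk-collagen scaffold, and 3D cells given MPP. MPP (1-methyl-4-phenylpyridinium), a toxin taken up by dopamine neurons and used to model Parkinson's disease, was present at 1 mM for 48 h from day 13 in both treated groups. All groups came from the same cell line and carried no other allele or agent named in the labels. The 2D cells were detached with Accutase and pelleted, whereas scaffolds were placed in tubes whole, so culture format and harvest cannot be told apart in any comparison of 3D with 2D.

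The family was singled out with its levels over these 4 groups already known, so its values are given below as measurements with their spread and without p-values. Nothing in the labels ties replicate libraries to separate cultures, and limma p-values for other genes therefore measure the spread between libraries, which may be technical. Values are read counts divided by 1 size factor per library, called normalised counts here. Library depth lay between 24589435 and 46359070 reads, and each ELAVL gene was covered by 1747 to 27367 reads per library. Mitochondrially encoded transcripts took 9.03 to 13.6% of reads in untreated 2D, 1.48 to 1.70% in MPP 2D, 3.83 to 7.97% in untreated 3D and 2.53 to 2.99% in MPP 3D. Of the markers of the labelled cell type, all 20 pan-neuronal genes looked up were measured. MAPT (tau), a neuronal gene looked up outside that list, was near 0, with group means from 1.33 to 8.72 normalised counts. Tyrosine hydroxylase (TH), the first enzyme of catecholamine synthesis, averaged 341 ± 25.8 (SD, n = 4) normalised counts in untreated 2D, 595 ± 91.0 in MPP 2D, 5585 ± 823 in untreated 3D and 4241 ± 237 in MPP 3D. The dopamine transporter gene was not analysed here.

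ELAVL proteins bind AU- and U-rich stretches of RNA, mostly in introns and 3′ untranslated regions, through 3 RNA recognition motifs. ELAVL1 (HuR) is made in nearly every cell type, moves between nucleus and cytoplasm, and is best known for stabilising short-lived mRNAs. ELAVL2 (HuB), ELAVL3 (HuC) and ELAVL4 (HuD) are largely restricted to neurons and cells of the neural crest lineage, where they act on splicing, mRNA stability and translation during neuronal differentiation. HuD is best known for binding GAP43 mRNA in growing axons, and the neuronal Hu proteins are antigens in paraneoplastic neurological syndromes.

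On GRCh38 (GENCODE 29) ELAVL1 lies on the minus strand of chromosome 19 (7958579 to 8005659) and ELAVL3 on the same chromosome and strand (11451326 to 11481046). ELAVL2 lies on the minus strand of chromosome 9 (23690104 to 23826337), and ELAVL4 on the plus strand of chromosome 1 (50048014 to 50203786). The paralogues are alike enough in coding sequence that it matters whether their reads could have been exchanged. Between the longest annotated coding sequences, identity ran from 69.7% (ELAVL1 with ELAVL2) to 76.1% (ELAVL3 with ELAVL4). The stretch of 60 bases that was most alike in all 4 genes is printed to show how far apart they are even there. It lies in the coding exons, 46 of its 60 bases were identical in all 4 genes, and capitals mark the positions that were not. The coding positions, counted from the A of the start codon, are 840 to 899 in ELAVL1, 1026 to 1085 in ELAVL2, 960 to 1019 in ELAVL3 and 1065 to 1124 in ELAVL4.
ELAVL1: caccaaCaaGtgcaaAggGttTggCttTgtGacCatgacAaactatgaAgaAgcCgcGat
ELAVL2: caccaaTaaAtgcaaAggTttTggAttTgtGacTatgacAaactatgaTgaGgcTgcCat
ELAVL3: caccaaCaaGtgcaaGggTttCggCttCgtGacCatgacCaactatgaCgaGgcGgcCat
ELAVL4: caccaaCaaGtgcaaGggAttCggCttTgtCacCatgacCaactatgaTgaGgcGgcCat
The longest identical run in any pair of coding sequences was 26 bases. No stretch of 50 bases in the annotated transcripts of one member occurred in another member. ELAVL1 exons overlapped an antisense transcript over 528 bases and ELAVL3 exons a same-strand transcript over 256 bases. Neither was among the genes of the table, and no source used here says whether the counting used strand, so over those 528 bases reads of ELAVL1 and of the antisense transcript may not have been told apart. ELAVL2 and ELAVL4 had no exon overlap with another annotated gene.

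ELAVL4 was the member that differed most between the culture formats. In untreated 2D its 4 libraries held 23167, 20900, 21077 and 21137 normalised counts (mean 21570.2 ± 1069, SD, n = 4). In untreated 3D they held 4322, 5049, 4655 and 4466 (4623 ± 315). The highest 3D library thus lay far below the lowest 2D library. The log2 difference was -2.22 (SE 0.11), which is 4.67-fold lower in the scaffold, and 134 of the 16984 genes tested had a lower value in this comparison. With MPP the 2D libraries held 20845, 18400, 21564 and 24081 (21222 ± 2338) and the 3D libraries 2759, 3466, 4858 and 3585 (3667 ± 873). These groups did not overlap either, and the log2 difference was -2.56 (SE 0.11), or 5.88-fold lower in 3D, with 87 genes below it. RNA was taken from whole cultures, so fewer ELAVL4-containing cells and less ELAVL4 mRNA per cell cannot be told apart.

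The differences of ELAVL4 with MPP were smaller than those between formats. In 2D the treated libraries spanned a range that contained all 4 untreated ones, and the log2 difference was -0.029 (SE 0.11). In 3D it was -0.36 (SE 0.11), and the groups overlapped because the third MPP 3D library (4858) exceeded 3 of the 4 untreated 3D libraries. Without that library the MPP 3D difference was -0.51, and without the lowest one, replicate 1, it was -0.23. The third MPP 3D library also had the highest summed level of 8 proliferation markers in its group, 15824 normalised counts against 9617 to 11834 in the other 3, and their part in the ELAVL4 value was not tested. Ordered by mean, ELAVL4 ran from MPP 3D through untreated 3D and MPP 2D to untreated 2D, and only the step between the formats separated neighbouring groups.

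**Figure D1:**
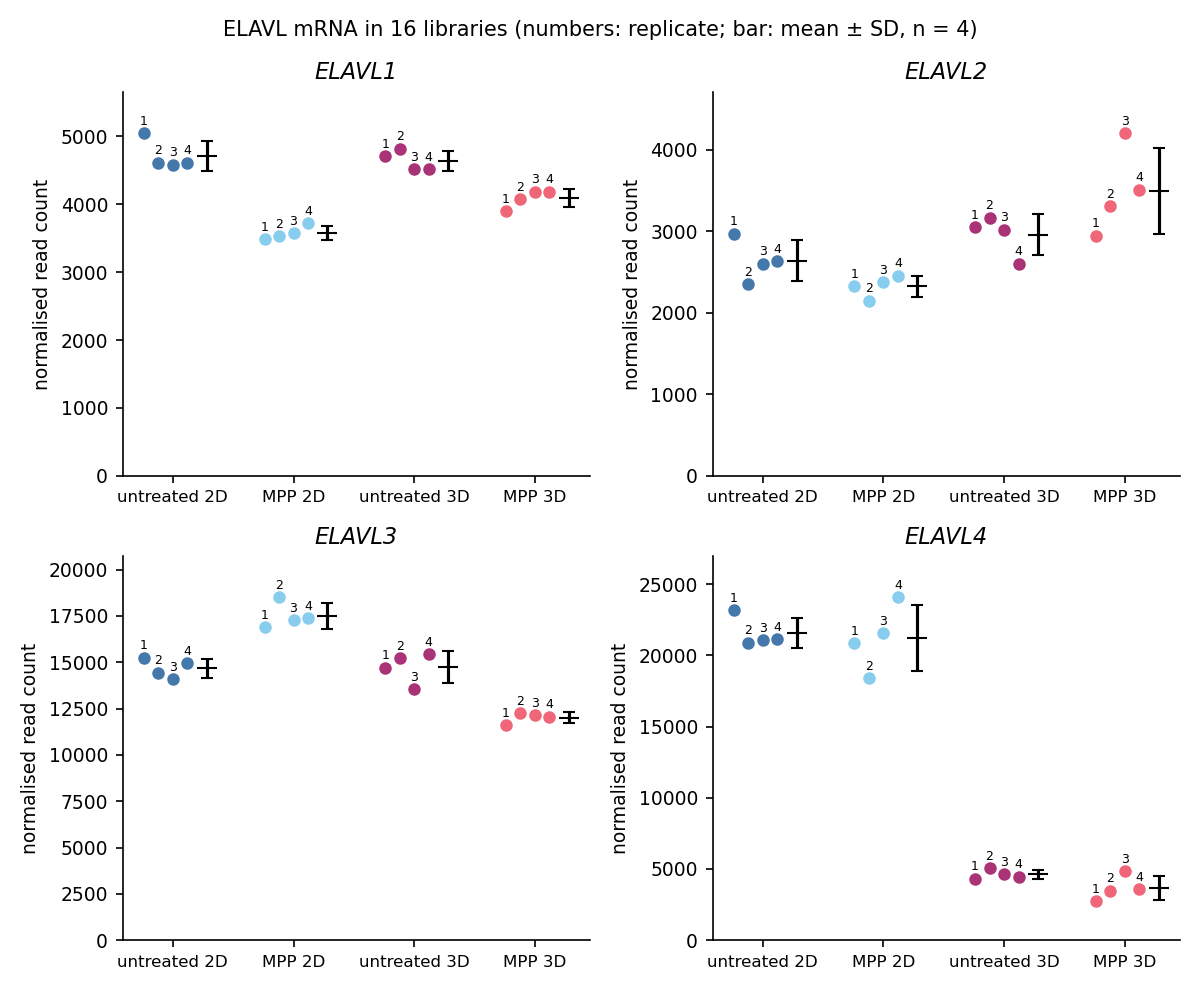
Normalised read counts of the 4 ELAVL genes in each of the 16 libraries (points, numbered by replicate), with the mean ± SD of each group of 4 beside them; the vertical axes start at 0 and differ between genes. ELAVL4 lies between 18400 and 24081 in all 8 dish libraries and between 2759 and 5049 in all 8 scaffold libraries, whereas the other members stay within a narrower range.

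ELAVL3, a neuronal member that persists in mature neurons, did not share this pattern. Its untreated 2D libraries held 15247, 14433, 14105 and 14956 normalised counts (14685 ± 513) and its untreated 3D libraries 14715, 15227, 13536 and 15452 (14733 ± 855). These overlapped almost completely, with a log2 difference of 0.0034 (SE 0.058). MPP went with a higher level in 2D and a lower one in 3D. The treated 2D libraries held 16888, 18503, 17262 and 17388 (17510.2 ± 695), all above the untreated ones, with a log2 difference of 0.25 (SE 0.058). The treated 3D libraries held 11603, 12271, 12135 and 12062 (12018 ± 290), all below the untreated ones, with a log2 difference of -0.29 (SE 0.058). The 3D effect minus the 2D effect was -0.55 (SE 0.082) on the log2 scale. Treated libraries of the 2 formats were the furthest apart: in 3D ELAVL3 was 1.46-fold lower than in 2D under MPP, a log2 difference of -0.54 (SE 0.058).

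ELAVL2, a neuronal member that is also made in germ cells, had its highest mean in MPP 3D. Its libraries held 2972, 2353, 2605 and 2639 normalised counts in untreated 2D (2642 ± 254) and 2330, 2150, 2377 and 2456 in MPP 2D (2328 ± 130). In untreated 3D they held 3055, 3169, 3020 and 2606 (2963 ± 246), and in MPP 3D 2947, 3308, 4207 and 3511 (3493 ± 530). In order of mean, MPP 2D, untreated 2D, untreated 3D and MPP 3D each overlapped the next, so no neighbouring pair was separated. At the ends of the order, every MPP 3D library exceeded every MPP 2D library, with a log2 difference of 0.57 (SE 0.095). The log2 difference with MPP was -0.18 (SE 0.095) in 2D and 0.23 (SE 0.095) in 3D, and that for untreated 3D against 2D was 0.17 (SE 0.095). Scaling to equal library totals took the value for MPP in 2D to -0.075, and equal totals without mitochondrial genes took that for untreated 3D against 2D to 0.077. The value for MPP in 3D was 0.14 without the third MPP 3D library, in which ELAVL2, ELAVL4 and the proliferation markers were all highest of their group.

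ELAVL1, the ubiquitous member, was lower with MPP in both formats and differed little between untreated formats. Its untreated 2D libraries held 5047, 4614, 4583 and 4610 normalised counts (4713 ± 223), and the MPP 2D libraries held 3489, 3527, 3576 and 3718 (3577 ± 100.2). The groups did not overlap, and the log2 difference was -0.40 (SE 0.058), or 1.32-fold lower. In untreated 3D the libraries held 4703, 4819, 4513 and 4519 (4639 ± 149), and in MPP 3D 3903, 4076, 4183 and 4186 (4087 ± 133). These did not overlap either, with a smaller log2 difference of -0.18 (SE 0.058). Scaling all libraries to equal totals, which counts the mitochondrial transcripts in full, took this last value to -0.087. Untreated 3D and 2D overlapped, at -0.022 (SE 0.058), and under MPP all 3D libraries lay above all 2D libraries, at 0.19 (SE 0.058).

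How common such separations were among all genes sets the scale for these counts, which describe the values the family was chosen by. For MPP in 2D, 1 member was higher and 1 lower in every treated library, where 38.8% of all genes tested had groups that did not overlap in either direction. For MPP in 3D, 2 members were lower without overlap, against 27.6% of all genes. In untreated 3D against 2D only ELAVL4 was separated, against 39.7% of all genes. Under MPP all 4 members were separated between the formats, 2 higher and 2 lower in 3D, against 37.5% of all genes. The 2 MPP comparisons and the 2 format comparisons share libraries pairwise, so their values stand side by side here and are not independent.

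**Figure D2:**
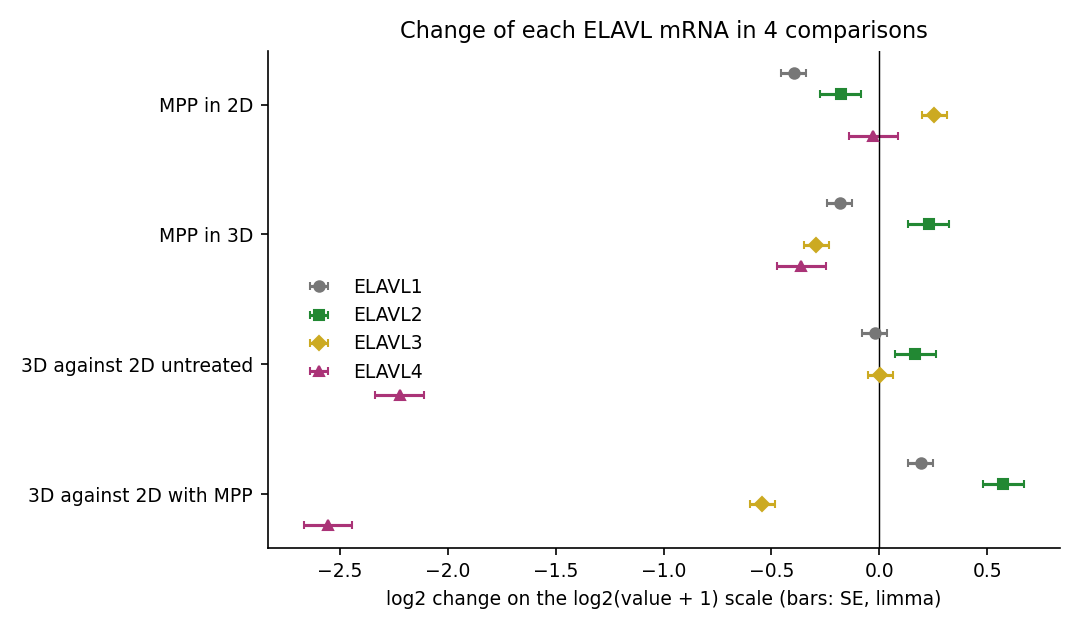
Fitted log2 change of each ELAVL gene in the 4 comparisons (points), with the SE from a limma fit to all 16 libraries (bars), on the log2(value + 1) scale. ELAVL4 sits at -2.22 and -2.56 in the 2 comparisons of 3D with 2D, and ELAVL3 lies right of 0 for MPP in 2D (0.25) and left of it for MPP in 3D (-0.29).

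Levels can be compared between genes only per length of transcript. Per kb of annotated exon, ELAVL3 and ELAVL4 stood alike in untreated 2D, at 3085 ± 108 and 3098 ± 154 normalised counts per kb (SD, n = 4), with ELAVL1 at 678 ± 32.0 and ELAVL2 at 514 ± 49.4. In untreated 3D, ELAVL3 stood at 3094 ± 180 per kb, ELAVL4 at 664 ± 45.2 and ELAVL1 at 667 ± 21.4. In MPP 3D, ELAVL2 stood at 680 ± 103 and ELAVL4 at 527 ± 125 per kb, and ELAVL2 was the higher of the pair in each of the 4 libraries. As a share of the family's counts per kb, ELAVL4 made up 42.0% ± 0.526 in untreated 2D, 39.5% ± 2.98 in MPP 2D, 13.3% ± 0.809 in untreated 3D and 12.1% ± 2.08 in MPP 3D. ELAVL3 made up 41.8, 47.9, 61.8 and 58.6% in the same order, ELAVL1 9.19, 6.69, 13.3 and 13.6%, and ELAVL2 6.96, 5.89, 11.5 and 15.7%. Because shares sum to the whole, the shares of the other 3 depend on ELAVL4 as well as on their own counts. The family's summed level per kb was 7374 ± 320.2 in untreated 2D, 7693 ± 306 in MPP 2D, 5002 ± 199.9 in untreated 3D and 4318 ± 285 in MPP 3D. These comparisons between genes depend on the gene model. With the longest coding transcript as the length, ELAVL4 made up 54.3% and ELAVL3 31.0% in untreated 2D, so that ELAVL4 stood above ELAVL3 in the dish, while ELAVL3 still stood above ELAVL4 in untreated 3D (53.4%) and in MPP 3D (50.4 against 18.1%). On that length ELAVL4 in untreated 3D was above ELAVL1, at 1166 ± 79.4 against 771 ± 24.8 per kb, and in MPP 3D the means of ELAVL4 (925 ± 220.2) and ELAVL2 (918 ± 139) came in the other order.

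**Figure D3:**
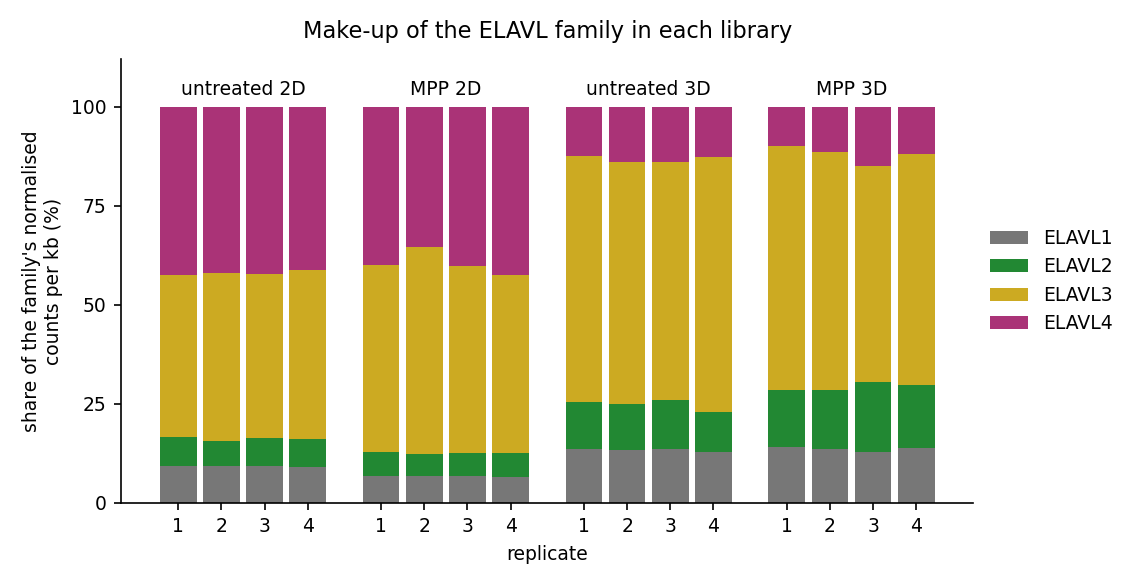
Share of each ELAVL gene in the family's normalised counts per kb of exon (vertical axis, percent) in each of the 16 libraries (bars, by group and replicate). ELAVL4 takes 35.5 to 42.6% of the bar in the dish libraries and 9.99 to 15.0% in the scaffold libraries.

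Ratios within a library do not depend on the size factors, but they do depend on ELAVL1, the denominator. With MPP, ELAVL1 itself differed by -0.40 in 2D and by -0.18 in 3D on the log2 scale. The log2 ratio of ELAVL4 to ELAVL1, set to 0 at the untreated 2D mean, averaged 0.37 ± 0.13 in MPP 2D, -2.20 ± 0.085 in untreated 3D and -2.38 ± 0.30 in MPP 3D (SD, n = 4). The ratio of ELAVL3 to ELAVL1 averaged 0.65 ± 0.071 in MPP 2D, 0.026 ± 0.079 in untreated 3D and -0.084 ± 0.030 in MPP 3D. The ratio of ELAVL2 to ELAVL1 averaged 0.22 ± 0.063, 0.19 ± 0.098 and 0.60 ± 0.18 in the same order. In MPP 2D the mean ratios of ELAVL4 and ELAVL2 were above 0, although neither gene had a higher mean count than in untreated 2D. Their own log2 differences there were -0.029 and -0.18, and that of ELAVL3 was 0.25.

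ELAVL4 has 7 annotated start windows in RefSeq (GRCh38.p14), each reaching from 250 bases before to 50 after a start. The most upstream window is printed because it stood apart from the other 6 in CpG content. It lies at chr1:50047805-50048104 on the plus strand, holds 20 CpG dinucleotides (in capitals), and is 57.7% G and C.
ELAVL4 most upstream start window: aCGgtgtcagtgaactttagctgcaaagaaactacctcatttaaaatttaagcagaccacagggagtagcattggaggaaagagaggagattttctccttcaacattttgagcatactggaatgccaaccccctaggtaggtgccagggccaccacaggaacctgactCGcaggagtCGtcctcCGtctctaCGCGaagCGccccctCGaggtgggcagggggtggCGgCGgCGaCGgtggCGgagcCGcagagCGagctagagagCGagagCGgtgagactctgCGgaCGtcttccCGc
The other 6 windows held 1 to 9 CpG, against a median of 14 over the 35116 start windows of all genes. Counts per gene do not say which start was used in any group. The letters ACGTG or GCGTG, the core bound by hypoxia-inducible factors, were searched on both strands and occurred in 48.4% of all windows (a palindromic CACGTG holds ACGTG on both strands). They were absent from the printed window and present in 3 of the other 6. CAGCTG, an E-box core read the same on both strands, occurred in 17.9% of all windows and in 2 of the ELAVL4 windows. Of the other members, ELAVL2 had 6 windows, of which all 6 held ACGTG or GCGTG and 1 held CAGCTG. These windows are not all separate: 2 of them (chr9:23821107-23821406 and chr9:23821260-23821559) overlap and share some of the matches. The ELAVL2 windows held 11 to 40 CpG.

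Each member was next set beside the named genes whose pattern over the 16 libraries was most like its own, measured as the root-mean-square difference of log2 values centred on the gene mean, among 12576 genes. For ELAVL4 these were ENC1 (0.15), SYNPO2 (0.17) and SEMA3A (0.17), while ELAVL4 itself varied by 1.21 about its mean. ENC1 encodes an actin-binding kelch-like protein of neurons, SYNPO2 an actin-binding protein and SEMA3A a secreted axon guidance cue. Their log2 differences in untreated 3D against 2D were -2.47, -2.22 and -1.89, beside -2.22 for ELAVL4. Because these genes were picked for likeness over the same libraries, the nearness of these values is no separate result. For ELAVL3 the nearest were DDA1 (0.086), MRPL49 (0.087) and SHB (0.090), with ELAVL3 itself at 0.20. For ELAVL1 they were RBM8A (0.064), KHDRBS1 (0.065) and PITPNA (0.066), with ELAVL1 at 0.17. RBM8A is a core protein of the exon junction complex, and KHDRBS1 (SAM68) is an RNA-binding splicing regulator. For ELAVL2 they were NAE1 (0.13), FAM107B (0.13) and SMURF2 (0.13), with ELAVL2 itself at 0.25. FAM107B and SMURF2, the latter a ubiquitin ligase, and NAE1, a subunit of the NEDD8 activating enzyme, followed ELAVL2 less closely relative to its own variation than the ELAVL4 set did.

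**Figure D4:**
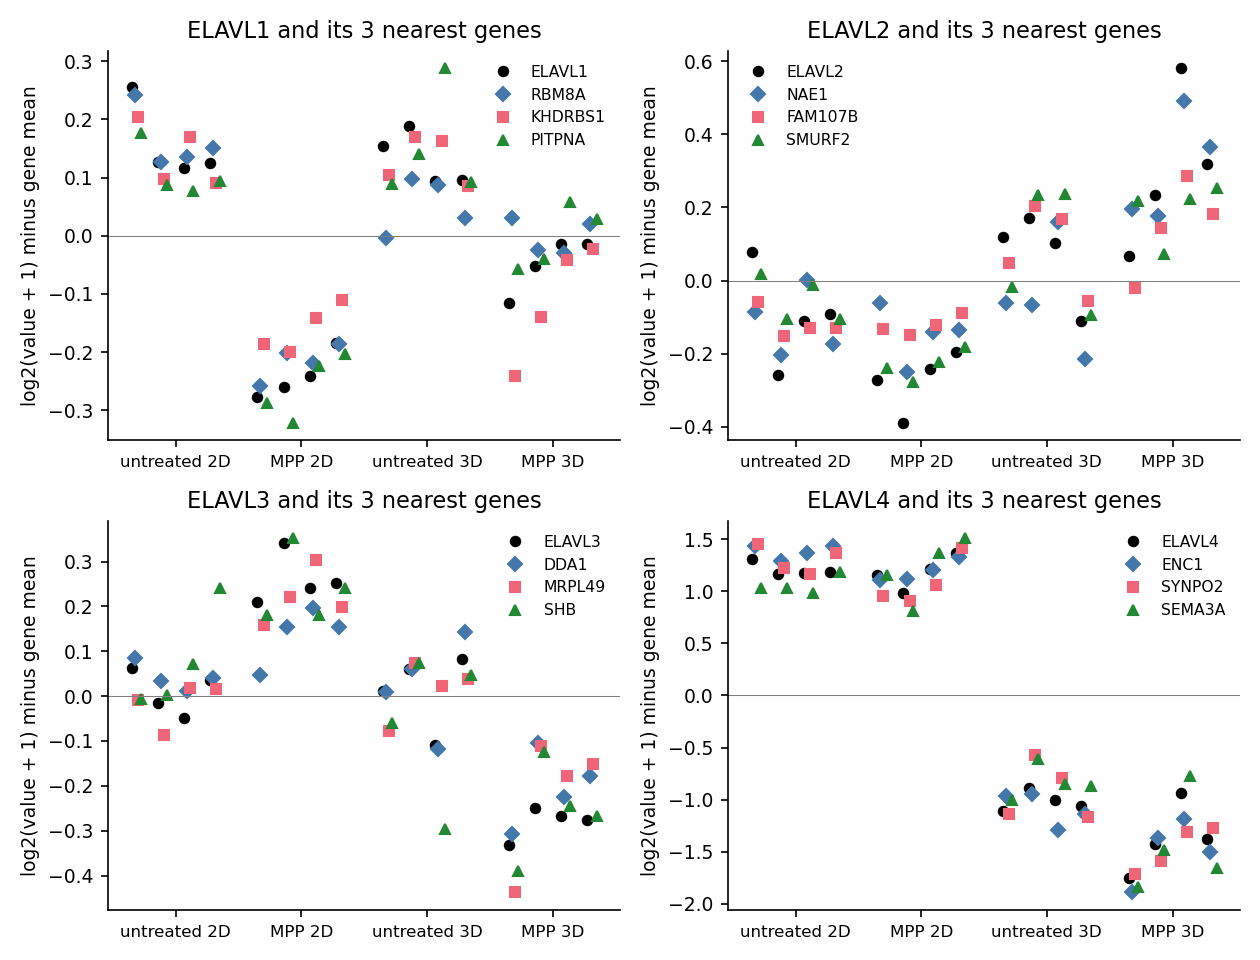
Each ELAVL gene (black) with its 3 nearest named genes over the 16 libraries, as log2(value + 1) minus the mean of that gene; libraries are ordered by group and replicate, and the vertical scales differ. The ELAVL4 set shows a step of about 2 log2 units between dish and scaffold libraries, and the other sets stay within 1 unit.

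The other genes around the family were counted by list, with a gene called when its limma p-value, adjusted by Benjamini-Hochberg over all 16984 genes tested, was under 0.05. For untreated 3D against 2D, 23.2% of all genes were called higher and 23.0% lower. The corresponding shares were 17.7 and 16.9% for MPP in 2D, 17.0 and 17.6% for MPP in 3D, and 19.0 and 19.9% for 3D against 2D under MPP. The test of whether the MPP effect differed between formats called 7.00% higher and 8.32% lower. Values in parentheses after a gene are its log2 change with the SE of the fit. The median log2 change of all genes lay between -0.019 and 0.020 in each of these 5 comparisons.

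Pan-neuronal markers were lower in the scaffold, as ELAVL4 was. Of 20 genes, 17 fell and 1 rose in untreated 3D against 2D (median log2 change -0.56), and under MPP 18 fell and 2 were not called (median -0.54). These counts lie above the background shares of 23.0% and 19.9%, but the list was chosen with earlier results of these data known. Both counts cover the same genes and are not independent. The largest falls among untreated cells (DCX and SYT1 are named after their values were seen) were those of DPYSL3, a growth cone protein (-1.49, SE 0.076), DCX, a microtubule-binding protein of young neurons (-1.13, SE 0.11), SYT1, the calcium sensor of vesicle release (-1.13, SE 0.092), and NEFM, a neurofilament subunit (-0.98, SE 0.069). TUBB3 (-0.24, SE 0.089) and MAP2 (-0.39, SE 0.10), a neuronal tubulin and a dendritic microtubule protein, fell less. ENO2, a glycolytic enzyme of neurons, rose (1.05, SE 0.056). In none of the 20 genes was the change as large as that of ELAVL4. The untreated values of ELAVL2 and ELAVL3 were 0.17 (SE 0.095) and 0.0034 (SE 0.058), and that of ELAVL3 turned negative with equal totals without mitochondrial genes (-0.085) and with quantile normalisation (-0.081). With MPP the same list was split: 5 rose and 3 fell in 2D, and 5 rose and 6 fell in 3D. The count of 5 higher in 3D was 10 with libraries scaled to equal totals. It was 8 with equal totals without mitochondrial genes, with quantile normalisation, and without the first MPP 3D library. STMN2, a tubulin-binding protein of growing axons, rose in both (0.44, SE 0.074, and 0.57, SE 0.074), as did RTN1, a reticulon (0.30, SE 0.064, and 0.32, SE 0.064), and NEFH, a neurofilament subunit, fell in both (-0.42, SE 0.079, and -0.71, SE 0.079). Another neuronal intermediate filament, INA, fell in 2D (-0.49, SE 0.078), and ENO2 fell in 3D (-1.18, SE 0.056).

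**Figure D5:**
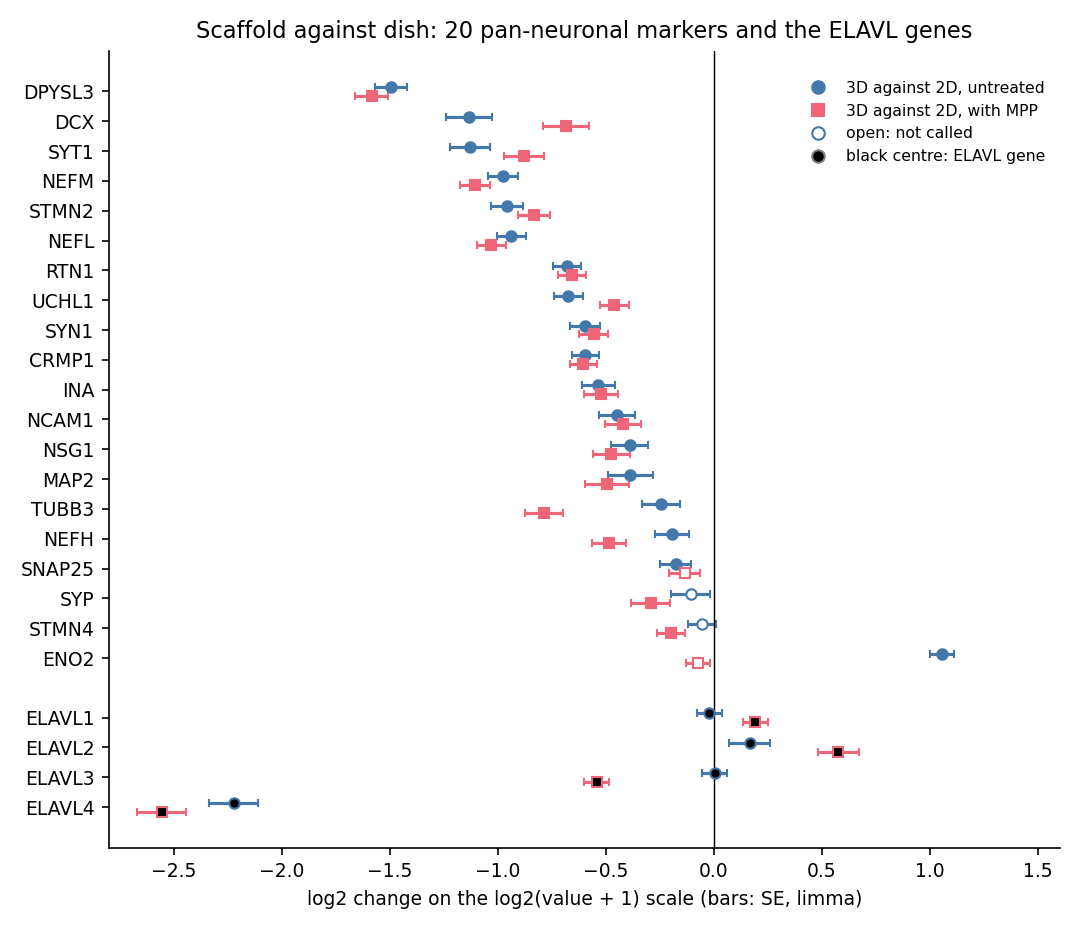
Fitted log2 change of 20 pan-neuronal markers and the 4 ELAVL genes in 3D against 2D, without MPP (circles) and with MPP (squares); bars are SE, open symbols are genes not called, and black centres mark the ELAVL genes, which were not tested. Most markers lie between 0 and -1.6, ELAVL4 lies beyond all of them, and ELAVL2 lies right of 0.

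Markers of other cell states moved as well. All 8 proliferation markers fell in untreated 3D against 2D (median -1.10) and with MPP in 2D (median -1.19), while with MPP in 3D 2 rose and 1 fell. MKI67, a protein of cycling cells, fell in untreated 3D (-1.24, SE 0.16), with MPP in 2D (-1.77, SE 0.16) and with MPP in 3D (-0.69, SE 0.16). The summed proliferation markers ranged over 25970 to 30608 normalised counts in untreated 2D, 10143 to 12320 in MPP 2D, 12482 to 13676 in untreated 3D and 9617 to 15824 in MPP 3D. Of 10 sympathoadrenal markers, 6 fell and 2 rose in untreated 3D against 2D, and their summed level ranged over 464443 to 503893 in untreated 2D and 249935 to 285993 in untreated 3D. Of 8 mesenchymal-state markers tested, 4 fell and 1 rose there, with sums of 20003 to 21622 in 2D and 16142 to 18444 in 3D, and PRRX1 was at 0 in both groups. The 5 Schwann and glial markers tested had limma adjusted p-values of 0.16 to 0.69 there, with sums of 669 to 834 in 2D and 865 to 950.1 in 3D, and SOX10 was at 0 in untreated 3D. The leukocyte and endothelial markers that could be tested, CD68 and VWF, rose. The 5 measured markers of that list summed to 121 to 194 in untreated 2D and 842 to 1262 in untreated 3D, while PTPRC, which defines leukocytes, was at 0 in untreated 3D and PECAM1, which defines endothelium, was at 0 in both. The part of any of these in the ELAVL values was not tested.

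Other RNA-binding proteins of neurons and of splicing, 29 of them tested, included 11 that fell and 3 that rose in untreated 3D (median -0.16). SRRM4, the activator of neural microexons, fell (-1.08, SE 0.082), as did MBNL3, a muscleblind splicing factor (-1.52, SE 0.24). CELF2 rose (2.17, SE 0.30) and so did NOVA2 (0.40, SE 0.073), a neuronal splicing factor. With MPP in 2D 4 rose and 8 fell (4 with equal library totals), among these RBM24 (0.88, SE 0.24) and PTBP3 (0.31, SE 0.10) upward and KHDRBS1 (-0.30, SE 0.059) and KHDRBS3 (-0.47, SE 0.098) downward. With MPP in 3D, 6 rose and 8 fell (5 with equal library totals). CELF2, which had risen in the scaffold, fell there (-2.11, SE 0.30), CELF5 fell (-0.90, SE 0.091), and CELF3 (0.51, SE 0.081) and CELF6 (0.41, SE 0.081) rose. In 3D against 2D under MPP 5 rose and 6 fell, but the 5 became 2 or 3 on leaving out any 1 of the 4 MPP 2D libraries, replicate 1, 2 or 3 of MPP 3D, or replicate 2 or 3 of untreated 2D, and 3 with no filter. The untreated count of 3 higher became 6 without the first MPP 3D library. It became 5 with DESeq2, with equal library totals, without the third untreated 3D library, and without both 3D libraries numbered 3.

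Factors that bind the same AU-rich elements, many of which shorten mRNA life where ELAVL1 prolongs it, were called in small numbers that moved with the settings. Of 19 tested, 3 rose and 5 fell in untreated 3D, 2 were higher and 3 lower for MPP in 2D, and 4 higher and 4 lower for MPP in 3D. The 3 lower for MPP in 2D became 6 without the fourth MPP 2D library or with equal totals without mitochondrial genes, and the 2 higher became 5 with equal library totals. The 5 lower in untreated 3D became 3 without the third untreated 2D library. ZFP36 (tristetraprolin), which recruits deadenylases, rose with MPP in 2D (0.81, SE 0.19), as did its relative ZFP36L1 (0.52, SE 0.20), which also rose in untreated 3D (0.60, SE 0.20). HNRNPC, a nuclear ribonucleoprotein, rose in untreated 3D (0.53, SE 0.073), and ZFP36L2 (-0.40, SE 0.084) and PAIP1 (-0.28, SE 0.065), a partner of the poly-A binding protein, fell. KHSRP, a decay-promoting protein, fell with MPP in 2D (-0.39, SE 0.057), and HNRNPD (AUF1) with MPP in 3D (-0.50, SE 0.11). HNRNPA1, a splicing and transport factor, fell with MPP in both formats (-0.39, SE 0.062, and -0.33, SE 0.062). AUH (0.40, SE 0.12) and EXOSC9, a subunit of the RNA exosome (0.26, SE 0.090), rose with MPP in 3D. Their 3D against 2D counts under MPP were 3 higher and 4 lower.

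Kinases, transport factors and methyltransferases reported to act on or with ELAVL1 numbered 17. In untreated 3D 8 fell and 1 rose. CDK1 (-1.23, SE 0.13) and KPNA2 (-0.88, SE 0.074), an importin, led the lower ones, and both are also known as genes of dividing cells. The proliferation markers fell in the same comparison, and their part in these values was not tested. PRMT1, an arginine methyltransferase, rose (0.23, SE 0.063). With MPP in 2D, 3 rose and 5 fell, and CDK1 (-1.16, SE 0.13) and KPNA2 (-0.82, SE 0.074) again led the lower ones. MAPKAPK2, a stress kinase downstream of p38, rose with MPP in both formats (0.42, SE 0.063, and 0.42, SE 0.063), and PRKCD, a protein kinase C, rose in 2D (0.37, SE 0.084). With MPP in 3D, 4 rose, among them CHEK2 (0.79, SE 0.12), and 2 fell, MAPK14 (-0.38, SE 0.080) and ANP32A (-0.33, SE 0.070). With equal library totals the counts higher were 5 for MPP in 2D and 7 for MPP in 3D. Under MPP, 4 were higher and 7 lower in 3D.

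Reported neuronal targets of the family, 18 of them tested, were called in 16 cases between untreated 3D and 2D, 5 higher and 11 lower (median -0.44). GAP43, a growth cone protein and the best known HuD target, fell (-1.14, SE 0.079), as did NEFM, which is also among the pan-neuronal markers. SLC2A1, a glucose transporter (2.08, SE 0.077), and NRN1, a neurite outgrowth factor (1.41, SE 0.13), rose. The direction was thus not the same over the list. Under MPP, 3 were higher (5 with quantile normalisation) and 9 lower in 3D. The counts were 2 higher and 6 lower for MPP in 2D, and 2 higher and 8 lower for MPP in 3D. GAP43 rose with MPP in both formats (0.28, SE 0.079, and 0.35, SE 0.079), and in 3D SLC2A1 (-1.12, SE 0.077) and NRN1 (-1.13, SE 0.13) fell. SLC2A1 rose in 2D (0.23, SE 0.077), where MARCKS, an actin-linked kinase substrate, fell (-0.51, SE 0.093), as did INA. APP, the amyloid precursor, rose with MPP in 3D (0.27, SE 0.065).

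Reported ELAVL1 targets in proliferation, survival and stress, numbered 23 and went in both directions. In untreated 3D 8 rose and 8 fell (median -0.0016). VEGFA, an angiogenic growth factor (3.02, SE 0.091), and DUSP1, a MAP kinase phosphatase (1.33, SE 0.086), rose, and CDKN1A, a cell cycle inhibitor (-0.87, SE 0.073), and BCL2, a survival protein (-1.43, SE 0.13), fell. With MPP in 2D, 8 rose and 10 fell (median -0.22), with CDKN1A (0.96, SE 0.073) and VEGFA (0.79, SE 0.091) higher and EGR1 (-1.09, SE 0.10) and PTMA (-0.88, SE 0.075) lower. With MPP in 3D, 3 rose and 9 fell (median -0.23). CDKN1A (1.02, SE 0.073) and HIF1A (0.78, SE 0.10) rose, whereas VEGFA (-2.46, SE 0.091) and EGR1 (-1.34, SE 0.10) fell. The MPP effect on VEGFA differed between formats (-3.25, SE 0.13). ELAVL1 was lower with MPP in both, and a link between the levels of ELAVL1 and VEGFA was not tested. Under MPP, 6 were higher and 5 lower in 3D.

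In the test of a different MPP effect in 3D and 2D, all 8 proliferation markers were called higher, that is, their effect in 3D was above that in 2D. Among the partners of ELAVL1, 5 were higher and 1 lower, and among its targets 5 were higher and 5 lower. Of the other lists, 2 RNA-binding proteins were higher and 2 lower, 1 AU-rich element factor was lower, 1 neuronal target was higher and 2 lower, and 1 pan-neuronal marker was higher and 2 lower. Several of these small counts moved with the settings: pan-neuronal markers called higher ranged from 0 to 3, being 0 without any 1 of 9 libraries, and AU-rich element factors called higher reached 4 with equal totals without mitochondrial genes. The 1 partner called lower was lost without replicate 4 of MPP 2D, replicate 4 of MPP 3D or replicate 2 of untreated 2D, and with equal totals without mitochondrial genes, and the 2 neuronal targets called lower became 4 without both 3D libraries numbered 3. Within the family the same quantity was 0.21 (SE 0.082) for ELAVL1, 0.41 (SE 0.13) for ELAVL2 and -0.33 (SE 0.16) for ELAVL4, beside the value for ELAVL3 given above. The ELAVL4 value was -0.22 with quantile normalisation and -0.21 without the first MPP 3D library.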

How the data were processed

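Per the submitters' processing notes, reads were handled with CASAVA 1.8.2, FastQC, STAR, featureCounts and DESeq2 on GRCh38.p13; no source used here gives settings, annotation or strand. The authors deposited a signal per gene and library, a read count divided by 1 size factor per library; 100% of values returned whole reads (tolerance 0.01). Here genes at 10 or more in at least 4 of the 16 libraries (16984 of 19898) were fitted with limma 3.58.1 (limma-trend, R 4.3.3) on log2(value + 1), 4 group means, Benjamini-Hochberg adjusted, called under 0.05, and tested on simulated data. Members carry no p because their levels were known when they were chosen. The members and lists (6 gene lists, 124 of 128 symbols in the table, and 5 marker lists, some sharing genes) were chosen with earlier results of these data known. Named from each list were the 2 genes of smallest p called in each direction with a mean of 50 or more, in untreated 3D against 2D and in both MPP comparisons, plus TH, MAP2, TUBB3, MKI67 and the 3 genes nearest each member. DCX, SYT1, MAPT, CD68, VWF, PECAM1, PTPRC, PRRX1 and SOX10 fell outside this rule and were named after their values were seen. Alternatives were edgeR 4.0.16 and DESeq2 1.42.0 on the recovered reads, other scalings, filters and pseudocounts, and libraries left out. Lengths came from GENCODE 29 and start windows from RefSeq (GRCh38.p14), which gave windows for 2 of the 4 members.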

Additional observations from a re-analysis of the deposited data

Results flagged for a closer look

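Of 16 groups of 4 values (4 genes in 4 groups), 2 held a library that lay apart from the other 3, judged by its gap to the nearest value over the whole range (Dixon's ratio, above its 95% critical value). Both were the first untreated 2D library: ELAVL1 stood at 5047 normalised counts (gap over range 0.935) against 4583 to 4614, and ELAVL4 at 23167 (0.895) against 20900 to 21137. Chance gives about 1 such group in 20 when groups are independent. In the first untreated 2D library ELAVL2 (2972) and ELAVL3 (15247) were also highest of their group, so the 2 flags are not independent. For ELAVL3, every MPP 2D library lay above and every MPP 3D library below its untreated group, and the 3D effect minus the 2D effect was -0.55 on the log2 scale. This difference was not tested, since the gene was chosen with its levels known.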

How the results depend on the processing

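Over 28 alternative settings, 546 of 556 recomputed log2 differences of the members moved by less than 1 SD between replicates. Many of these could not move. A replicate block, another filter, a fit of only the groups compared, or a left-out library outside the comparison does not alter a member's limma difference. The share therefore overstates how stable the values were. With equal library totals, ELAVL1 and ELAVL3 stood at -0.29 and 0.36 for MPP in 2D and at -0.087 and -0.20 for MPP in 3D. That scaling moved the median of all genes to 0.12 for MPP in 2D. It took the share of called genes that were higher from 51.1 to 70.3% there and from 49.0 to 66.0% for MPP in 3D. With equal totals without mitochondrial genes, ELAVL1 and ELAVL3 stood at -0.11 and -0.085 for untreated 3D against 2D and at 0.32 and -0.44 for the difference of MPP effects. The share higher was then 38.3% (50.2% before), 66.9% (45.7%) and, for MPP in 3D, 59.3%. Quantile normalisation gave ELAVL3 -0.081 and -0.41 in the same 2 comparisons. The near-zero ELAVL4 value for MPP in 2D took either sign. Leaving out both 3D libraries numbered 3, chosen after seeing the data, gave -0.50 for ELAVL4 and 0.15 for ELAVL2 with MPP in 3D. Of 1668 recomputed list counts, 1588 stayed within 1.5 times. Deviations of each library from its group mean were correlated over genes with those of libraries in other groups. Same-numbered libraries gave -0.11 to 0.090 over 24 pairs, and differently numbered ones -0.16 to 0.14. Same-numbered libraries were thus no more alike by this measure, which does not settle whether the numbers pair samples. A fit with a replicate block called 7634 genes for untreated 3D against 2D (7830 without it). Each group holds every replicate number once, so such a block cannot change the members' log2 differences. Depth did not limit the members, which had at least 1747 reads per library. Counting intervals would cover counting error only.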
